A study of Mus musculus with 2 samples.

Results

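Conventional dendritic cells type 1 (cDC1) were described in mononuclear cells of mouse liver, from 1 control library and 1 library of mice given MC38 cells. A barcode was taken as a cDC1 if it had at least 200 genes and at most 20% of its unique molecular identifiers (UMIs) in mitochondrial genes, at least 2 UMIs of Xcr1 and Clec9a together, at most 2 of Siglech, 0 of Fscn1, at most 1 of Cd3d, Cd3e and Cd3g together and at most 1 of Cd79a. This gave 258 barcodes in the control library and 147 in the MC38 library, 405 of 34080 in all. The levels of Xcr1 and Clec9a therefore chose the cells and are given below as a description.

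Both libraries came from C57BL/6 mice at day 14, each from the pooled livers of 3 mice. The control mice had PBS injected intrasplenically and carry the tumor label "No tumor". The MC38 mice had 500000 cells of MC38, a mouse colon carcinoma line, injected intrasplenically, followed by splenectomy. The protocol, worded alike for both libraries, also names a subcutaneous injection of 3000000 MC38 cells. The titles end in "SC" for the control library and "SC+liver" for the MC38 library, and whether control mice carried a subcutaneous tumor or kept their spleens is not stated. Hepatocytes were depleted at low speed and mononuclear cells collected over a density gradient, and 5′ droplet libraries were then made. Each group is 1 library, so the groups could not be tested against each other. The 95% intervals given are exact and cover counting error only, not the spread between mice. Those of gene ratios treat each UMI as independent and leave out the spread between cells as well. In pooled tissue, fewer cells of a type in the liver and poorer recovery of them cannot be told apart.

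cDC1 are the dendritic cells that take up material of dying cells and present it on MHC class I to CD8 T cells, which is called cross-presentation. They arise under the transcription factors Irf8 and Batf3. They carry Xcr1, the receptor for the chemokine Xcl1 made by NK cells and CD8 T cells, and Clec9a, a receptor for actin filaments laid bare in dead cells. In tumors they are known as a source of Cxcl9 and, once mature, of Il12b.

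The control library held 91617457 UMIs in 14258 barcodes and the MC38 library 114421875 in 19822, of which 8086 and 17338 barcodes passed the gene and mitochondrial limits. The mitochondrial limit removed 42.5% of the control barcodes and 11.2% of the MC38 barcodes. Members summed to 3578390 and 2241152 UMIs, with a median of 13705 UMIs per cell in the control library (749 to 43537) and 15524 in the MC38 library (1209 to 57262). Their median mitochondrial share was 8.39% and 4.94%. The libraries shared 63 barcode sequences, among them 0 control members and 3 MC38 members. A doublet caller marked 4.36% and 8.83% of the scored barcodes, among them 3 control and 7 MC38 members, which were kept in the values below.

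cDC1 made up 3.19% of the control barcodes that passed the limits (95% interval 2.82 to 3.6) and 0.848% of the MC38 barcodes (0.717 to 0.996). The share was thus 3.76-fold lower in the MC38 library, and the intervals did not overlap. Among barcodes given to an immune class by marker rules (6820 and 9347) the shares were 3.78% and 1.57%, a 2.41-fold difference. The share of cDC2, taken by Cd209a, Clec4a4 or Mgl2 with Flt3, was also lower, at 2.87% (232 cells) and 0.536% (93 cells). Plasmacytoid dendritic cells (pDC, taken by Siglech) were at 7.78% (629 cells) and 1.41% (244 cells). Mature dendritic cells (Fscn1 and Ccr7) were the exception, at 0.804% (65 cells) and 1.61% (279 cells). There were 111 cDC1 per 100 cDC2 in the control library and 158 in the MC38 library. With at least 4 UMIs of the rule genes required there were 174 control cDC1, fewer than the 232 cDC2, and 105 MC38 cDC1, more than the 93 cDC2. Cd209a, by which cDC2 were taken, itself differed between the libraries outside cDC2. It was seen in 14.3% of control cDC1 and 1.36% of MC38 cDC1. The part of its level in the cDC2 counts, and so in the numbers of cDC1 per cDC2, was not tested.

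**Figure D1:**
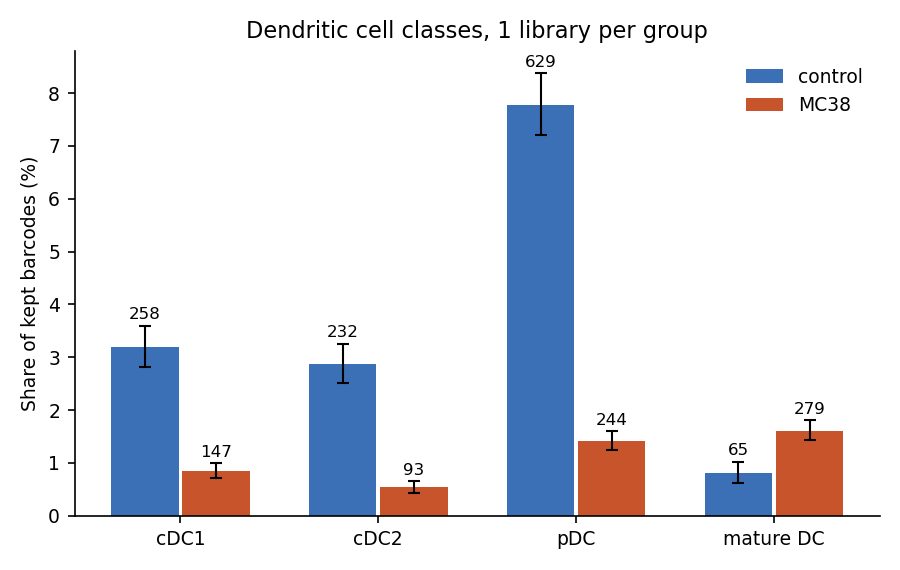
Share of kept barcodes (%, y axis) of 4 dendritic cell classes (x axis) in the control and MC38 libraries, with 95% exact binomial intervals and the number of cells above each bar. cDC1 stand at 3.19% and 0.848%, and mature dendritic cells are the class with the higher share in the MC38 library.

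The size of this difference moved with the mitochondrial limit, which removed far more control barcodes. With a limit of 5% the shares were 8.42% and 1.24%, and with none 2.18% and 0.792%. Another 50 control and 8 MC38 barcodes met the marker rule but lay over the limit. The part of cell quality in the difference was not tested.

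The label was checked on cDC1 markers that the rule did not use. Members with at least 4 UMIs of Xcr1 and Clec9a (174 control, 105 MC38) carried these markers. Wdfy4, which is needed for cross-presentation, was at 872 CPM in the control library and 928 CPM in the MC38 library, where CPM are a gene's UMIs per 1000000 UMIs of the barcodes summed. The acid amidase Naaa was at 1228 and 1125 CPM, and the adhesion molecule Cadm1 at 235 and 167 CPM. At least 5 of 10 other cDC1 markers were detected in 96.0% and 96.2% of these cells.

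Members with only 2 or 3 UMIs (84 control and 42 MC38, or 32.6% and 28.6% of all members) went partly against the label. In them Wdfy4 was at 328 and 458 CPM, and Cadm1 at 37.5 and 50.8 CPM. Lyz2, the lysozyme of monocytes and macrophages, was at 3653 and 3661 CPM, against 604 and 1147 CPM in members with 4 or more. Monocyte or macrophage markers had more UMIs than cDC1 markers in 38 control members (14.7%) and 18 MC38 members (12.2%) in all. The cDC1 class as ruled thus held a minority of barcodes with a mixed or monocyte profile in both libraries.

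At the threshold itself the change was gradual. Just outside it, barcodes with 1 UMI (131 control, 112 MC38) had Wdfy4 at 217 and 181 CPM and Lyz2 at 4970 and 8569 CPM. Just inside, barcodes with 2 UMIs (60 and 28) had Wdfy4 at 291 and 304 CPM and Lyz2 at 4944 and 4769 CPM. From 3 UMIs on, Lyz2 was at 1654 CPM or less in both libraries.

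**Figure D2:**
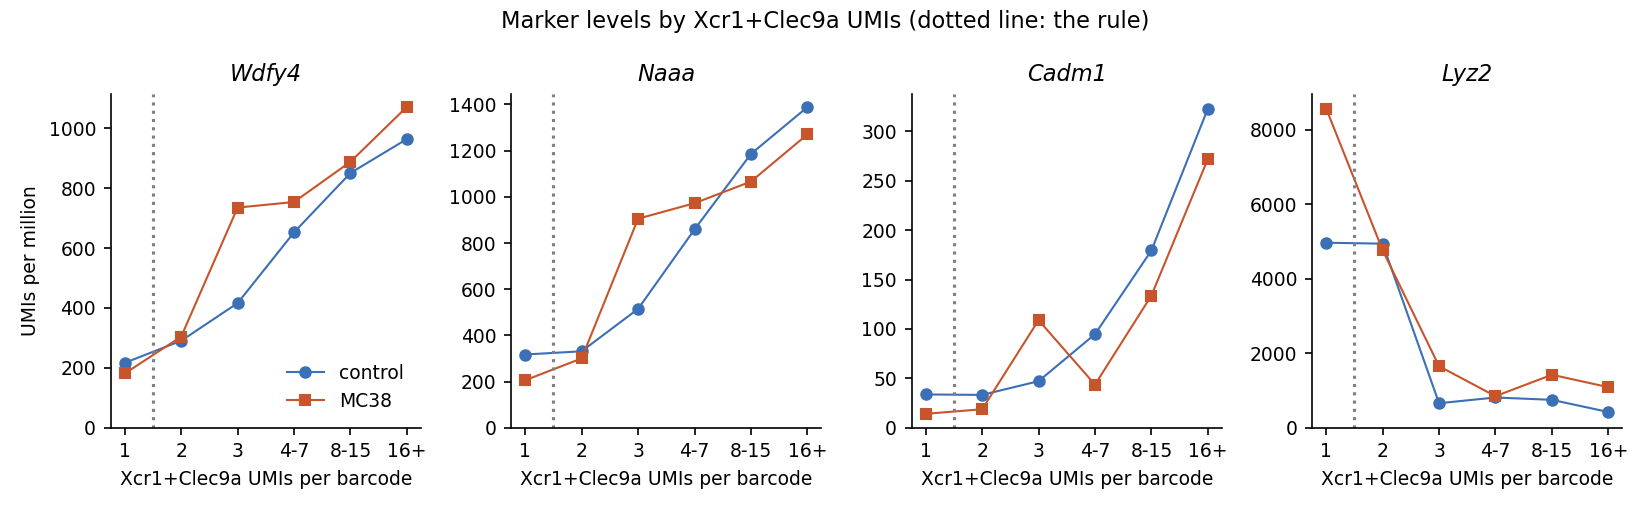
Level (CPM, y axis) of 4 genes in barcodes grouped by their UMIs of Xcr1 and Clec9a together (x axis), per library; the dotted line is the rule. Wdfy4, Naaa and Cadm1 are highest in barcodes with 16 or more UMIs of the rule genes in both libraries, and Lyz2 drops from 4944 to 661 CPM in the control library between 2 and 3 UMIs.

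Most members had both rule genes, 180 control (69.8%) and 114 MC38 (77.6%). Xcr1 without Clec9a was seen in 24 and 14 members, and these had Naaa at 1213 and 913 CPM. Clec9a without Xcr1 was seen in 54 (20.9%) and 19 (12.9%), and these stood apart. Their Cadm1 was at 22.8 and 8.97 CPM, their Lyz2 at 3890 and 3836 CPM, and their Tcf4, the master regulator of pDC, at 326 and 108 CPM. In the control library these barcodes also had Cd209a, a lectin of cDC2, at 309 CPM, against 17.9 CPM in the MC38 library. Clec9a is also carried by pDC, and the Siglech limit removed 186 control and 28 MC38 barcodes that had at least 2 UMIs of the rule genes. All of those had Clec9a, while 3 and 0 had Xcr1.

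Beside cDC2, pDC and mature dendritic cells, Tlr3 stood out most among the genes that the rule did not use. This sensor of double-stranded RNA was at 150 CPM in control cDC1 and 168 CPM in MC38 cDC1, and at most at 3.27 CPM in any of the other dendritic classes. The sorting nexin Snx22 (87.5 and 96.8 CPM), the small GTPase Rab7b (393 and 287 CPM), Gcsam (86.6 and 99.5 CPM) and Ifi205 (189 and 232 CPM) followed. Ppt1, Cadm1, Naaa, Sept3 and the calcium channel Trpm2 completed the 10 genes with the largest ratios, all at least 6.22-fold above the highest other class in both libraries. These genes describe the class; a class against the rest is no test. Irf8 was shared with pDC, at 2407 CPM in control cDC1 and 4065 CPM in control pDC.

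A gene was called higher or lower in MC38 cDC1 if its CPM over all members differed at least 1.5-fold and the 95% counting interval of the ratio excluded no difference. Of 10592 genes with at least 10 UMIs, 937 were called higher (8.85%) and 759 lower (7.17%). In either direction these were 16% of the genes. Of genes with at least 100 UMIs, 6.74% were called higher and 7.39% lower. The median log2 ratio over all genes compared was −0.02. These are differences between the 2 libraries.

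The genes of cDC1 identity were mostly at like levels, with 22 of 28 called neither higher nor lower and a median log2 ratio of 0.02. Irf8 was at 2407 CPM in the control library and 2478 CPM in the MC38 library (log2 ratio 0.04, −0.01 to 0.09). Batf3 was at 250 and 197 CPM (−0.34, −0.51 to −0.18). Id2, a partner of this programme that blocks the pDC fate, was at 1438 and 1428 CPM. Irf8 and Id2 thus lay within 1.1-fold between the libraries, and Batf3 was modestly lower in the MC38 library. The chosen genes Xcr1 (507 and 414 CPM) and Clec9a (273 and 247 CPM) are shown as a description.

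Plet1, a surface protein known from epithelial progenitors and from intestinal dendritic cells, gave the clearest contrast. Its gene lies at chr9:50494525-50505482 (GRCm38, plus strand). It had 0 UMIs in the 258 control members and 675 in the 147 MC38 members (301 CPM). The difference is at least 359-fold against a floor of 3 UMIs over the control members. It was seen in 75 MC38 members (51.0%, 42.7 to 59.3) and in 0 of 258 control members, which allows a share of cells with a UMI of up to 1.16%, counting 3 cells as the floor. No single cell carried the signal, since the highest held 6.52% of the UMIs. The whole control library had 8 UMIs of Plet1 and the whole MC38 library 1702. Among MC38 barcodes it was also present in cDC2, at 205 CPM, was at 0 CPM in pDC and was seen in 0.691% of B cells, at a median of 3155 UMIs per B cell. It was at 9.92 CPM in mature dendritic cells and 3.17 CPM in monocytes or macrophages. Barcodes just outside the rule, with 1 UMI of Xcr1 and Clec9a, had 71.8 CPM. The kept MC38 barcodes held 1682 Plet1 UMIs, of which 675 were in members. Among the dendritic classes and monocytes or macrophages, Plet1 was thus highest in cDC1 and cDC2 in the MC38 library.

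Itgae, the integrin alpha chain CD103 that binds E-cadherin and marks cDC1 of peripheral tissues, was at 90.8 CPM in the control library and 339 CPM in the MC38 library, 3.73-fold higher (3.27 to 4.26). Its gene lies on chromosome 11. It was seen in 39.9% of control members (33.9 to 46.2) and 78.9% of MC38 members (71.4 to 85.2), and after each cell was thinned to 2000 UMIs in 13.7% and 39.0%. In B cells, with medians of 3907.5 and 3155 UMIs, it was seen in 0.0954% and 0.346%. Of the 75 MC38 members with Plet1, 67 also had Itgae. The log2 ratio of Itgae was 1.83 in members with 4 or more UMIs of the rule genes and 1.90 in all members. More cells with Itgae were therefore seen at equal depth, and a higher level also in the strictly marked members. In cDC2 Itgae was at 3.07 and 55.5 CPM, so the higher level in the MC38 library was not particular to cDC1.

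Sept3, a septin, was at 115 and 222 CPM (log2 0.95, 0.75 to 1.14) and was called higher. Nfil3, a transcription factor upstream of the cDC1 lineage, was also called higher but rested on 18 and 26 UMIs. Cd36, a scavenger receptor used in the uptake of apoptotic cells, was at 94.2 and 39.3 CPM (−1.26, −1.62 to −0.92). Zbtb46, a factor of the conventional dendritic lineage, was at 66.8 and 39.3 CPM (−0.77, −1.14 to −0.41). Both were lower in the MC38 library. The remaining members included Flt3, the growth factor receptor of the lineage (216 and 170 CPM), Cadm1 (192 and 145 CPM), Tlr11 (67.6 and 57.6 CPM) and Btla (141 and 180 CPM), none past 1.5-fold.

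**Figure D3:**
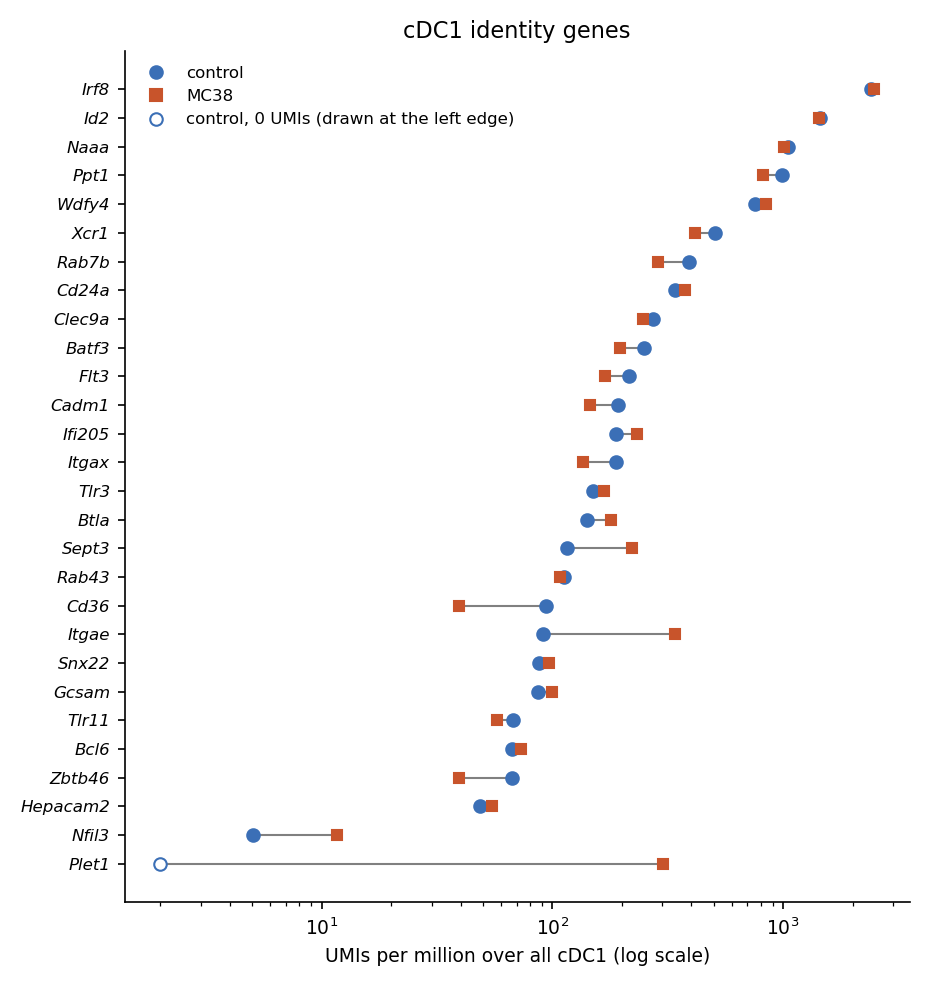
Level of the 28 cDC1 identity genes (CPM over all members, log axis) in the control and MC38 libraries, 1 line per gene. Most pairs lie close together, while Plet1 goes from 0 to 301 CPM, Itgae from 90.8 to 339 CPM and Cd36 from 94.2 to 39.3 CPM.

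Genes of antigen presentation on MHC class I had 0 of 20 higher and 2 lower, against 8.85% and 7.17% of all genes. Their median was −0.24. The heavy chain H2-K1 was at 1124 CPM in the control library and 886 CPM in the MC38 library (−0.34, −0.42 to −0.27). The peptide transporter Tap1 was at 293 and 385 CPM (0.39, 0.26 to 0.52), and the immunoproteasome subunit Psmb8 at 1035 and 1096 CPM. H2-T23, a nonclassical class I chain that binds receptors of NK cells, was lower at 172 and 89.7 CPM (−0.94). H2-Q7 was at 157 and 101 CPM and was called lower, but its sequence is close to that of other class I genes and its count is uncertain.

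Against 8.85% and 7.17% of all genes, 1 of 18 genes of cross-presentation was called higher and none lower. This was Ifi30, a lysosomal thiol reductase that opens disulfide bonds of antigens, at 561 and 1154 CPM (2.06-fold, 1.94 to 2.18). The Wdfy4 level was 755 and 842 CPM, the small GTPase Rab43 113 and 108 CPM and the translocon subunit Sec61b 568 and 579 CPM. Of 14 genes of MHC class II, H2-DMb2, a chain of the peptide editor H2-DM, was called higher at 64.3 and 117 CPM. H2-Ab1 was at 7606 and 7217 CPM and Cd74, the invariant chain, at 16011 and 16157 CPM, so the bulk of class II transcripts lay within 1.1-fold between the libraries.

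The 20 type I interferon response genes gave the most uniform group, with 0 called higher and 15 lower, against 7.17% of all genes called lower. The median log2 ratio was −2.06, against −0.02 over all genes. Ifi27l2a, on chromosome 12, was at 215 CPM in the control library and 45.1 CPM in the MC38 library, 4.76-fold lower. Isg15, a ubiquitin-like protein coupled to other proteins in the antiviral response, was at 88.9 and 21.4 CPM, 4.15-fold lower. At least 1 UMI was found in 32.2% of control and 17.0% of MC38 members, and in 8.21% and 4.41% of B cells. Ifit3, an RNA-binding effector, had 66 UMIs in 13 control members and 2 UMIs in 1 MC38 member. Usp18, which removes Isg15 and dampens receptor signalling, was at 34.4 and 8.03 CPM. Mx1 was at 47.2 and 16.5 CPM, and Irf7, the factor that amplifies the response, at 102 and 60.2 CPM. Zbp1 (48.6 and 50.4 CPM) and Oasl2 (18.2 and 18.3 CPM) were at like levels.

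Many of these genes had few UMIs, and the size of the difference depended on which members were counted. In members with 4 or more UMIs of the rule genes the median was −1.31 and 13 of 20 were lower. Among genes with at least 100 UMIs it was −1.15, with 7 of 10 lower, and after thinning −0.88, with 7 of 13 lower. The same list was lower in cDC2 (14 of 20, median −1.60), in pDC (14 of 20, −1.54) and in monocytes or macrophages (20 of 20, −2.40). In mature dendritic cells 5 of 15 were lower and 1 was higher, with a median of −0.47. By these medians the cDC1 shared the direction with the other classes, and no test of a difference between classes was made. The shares of all genes called in those other classes are not given, so no background stands beside their counts. Markers of pDC, which make interferon, summed to 416 and 222 CPM in the members, with 4 of 7 lower, and the part of this was not tested.

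The interferon gamma response genes held calls both ways. Of 18, 7 were called higher and 2 lower, with a median of 0.31, against 8.85% and 7.17% of all genes. With each barcode weighted equally 3 were higher and 2 lower, and without members that had 5 or more cell cycle UMIs 1 was higher and 6 were lower, with a median of −0.56. The guanylate-binding protein Gbp2 was at 34.1 and 112 CPM (3.28-fold, 2.64 to 4.11). Gbp7 was at 6.43 and 33.5 CPM, with its control share of cells (6.59%) under that of B cells (12.7%), and Iigp1 at 24.6 and 73.2 CPM. Cxcl10, which both interferons induce, was at 69.3 and 3.57 CPM and 19.4-fold lower. Irgm1 was at 26.0 and 12.5 CPM. Of the guanylate-binding proteins, Gbp2, Gbp3, Gbp5 and Gbp7 were called higher, Gbp4 neither, and Gbp6 had too few UMIs to be compared. With monocyte-marked barcodes left out the log2 ratio of Gbp2 was 0.17 and it was called neither, against 1.72 with them.

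**Figure D4:**
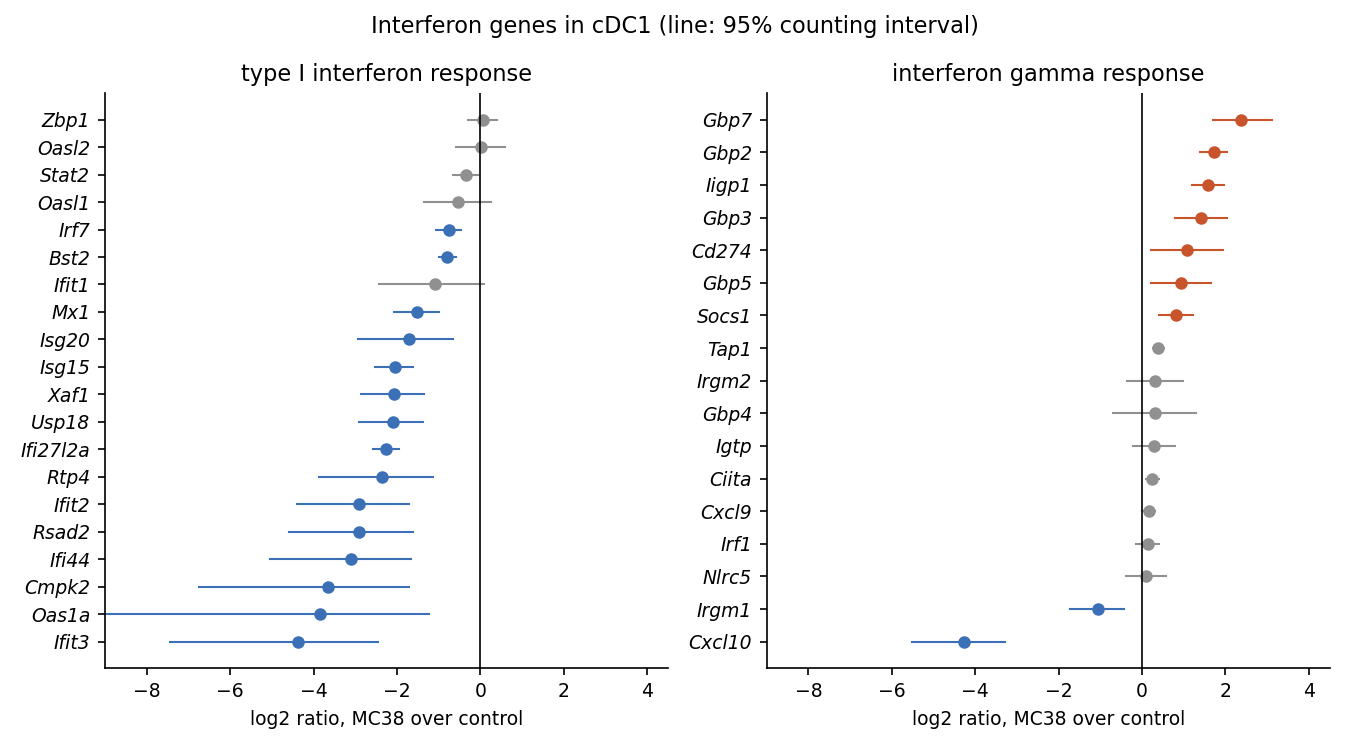
Log2 ratio of CPM, MC38 over control (x axis), for the genes of the type I interferon list (left) and of the interferon gamma list (right) in cDC1, with 95% counting intervals; orange is called higher, blue lower and grey neither. On the left 15 of 20 genes are called lower, and on the right 7 are called higher and 2 lower, with 1 gene of the list called neither not drawn.

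The promoters of Isg15, Ifit3, Gbp2 and Cxcl10 are shown because these genes belong to interferon programmes and, over all members, differed between the libraries in opposite directions. They are RefSeq windows of GRCm38.p6 from 250 bases before to 50 after the start, 5′ to 3′ on the strand of the gene. Capitals mark GAAA, any 2 bases and GAAA on either strand, the core of the interferon-stimulated response element.
Isg15, chr4:156200769-156201068, minus strand: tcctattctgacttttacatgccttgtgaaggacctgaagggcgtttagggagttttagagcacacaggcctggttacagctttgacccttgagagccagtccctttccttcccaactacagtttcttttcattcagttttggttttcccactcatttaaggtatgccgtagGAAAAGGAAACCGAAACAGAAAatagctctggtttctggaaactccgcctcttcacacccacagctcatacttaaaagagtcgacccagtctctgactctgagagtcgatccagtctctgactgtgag
Ifit3, chr19:34583279-34583578, plus strand: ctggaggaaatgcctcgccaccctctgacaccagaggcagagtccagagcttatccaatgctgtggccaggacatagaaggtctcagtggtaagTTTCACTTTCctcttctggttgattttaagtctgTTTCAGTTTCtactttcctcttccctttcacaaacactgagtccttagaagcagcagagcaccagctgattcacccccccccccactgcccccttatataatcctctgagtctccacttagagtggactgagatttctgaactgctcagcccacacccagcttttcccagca
Gbp2, chr3:142620413-142620712, plus strand: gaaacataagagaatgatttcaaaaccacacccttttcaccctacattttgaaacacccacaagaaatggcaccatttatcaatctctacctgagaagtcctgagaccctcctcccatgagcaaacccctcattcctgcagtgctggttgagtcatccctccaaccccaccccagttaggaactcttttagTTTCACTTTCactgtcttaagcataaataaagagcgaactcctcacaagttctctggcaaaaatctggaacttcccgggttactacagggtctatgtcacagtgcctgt
Cxcl10, chr5:92348840-92349139, minus strand: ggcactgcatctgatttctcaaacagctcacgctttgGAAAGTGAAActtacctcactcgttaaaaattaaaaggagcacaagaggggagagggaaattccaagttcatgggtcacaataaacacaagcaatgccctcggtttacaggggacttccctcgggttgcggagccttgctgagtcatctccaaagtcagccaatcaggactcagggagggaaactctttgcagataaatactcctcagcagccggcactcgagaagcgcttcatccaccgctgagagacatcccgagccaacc

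Isg15 held 3 such matches, which overlap each other, Ifit3 2, Gbp2 1 and Cxcl10 1. Of the windows of all genes 3.44% held the motif (1131 of 32851 windows). Of the type I interferon list 15 of 20 genes had a window, and 7 of their 18 windows held it (38.9%). Of the interferon gamma list 13 of 20 genes had a window, and 9 of their 15 windows held it (60%). The gamma-activated site TTCNNNGAA was in 8.3% of all windows, in 4 of 18 and in 5 of 15 of these lists, and in none of the 4 windows shown. The response element core was therefore present in genes that were lower (Isg15, Ifit3, Cxcl10) and in a gene that was higher (Gbp2) over all MC38 members. Gbp2 was called neither without monocyte-marked members (0.17) and without members that had 5 or more cell cycle UMIs (−0.38).

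Among costimulatory and inhibitory ligands 3 of 15 were called higher and 0 lower, against 8.85% and 7.17% of all genes. Cd86 was at 129 CPM in both libraries and Cd40 at 35.5 and 28.1 CPM. Cd274, the ligand PD-L1, was at 6.15 and 12.9 CPM and called higher, on 22 and 29 UMIs. The shares of cells with a UMI were 5.81% and 12.9% of members and 9.45% and 8.38% of B cells, which can make Cd274 themselves. In members with 4 or more UMIs of the rule genes Cd274 was called neither. Icosl was at 21.0 and 33.0 CPM and Cd83 at 59.2 and 90.6 CPM, with Cd83 called neither in members with 4 or more UMIs of the rule genes. Cd80 had 21 and 7 UMIs and was not called. Most of these ligands thus were at like levels, and the 3 higher calls were on genes under 100 CPM.

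In the list of maturation and lymph node homing, which the Fscn1 limit of the rule holds down, 9 of 19 genes were called higher and 1 lower, with a median of 0.55, against 8.85% and 7.17% of all genes. Without members that had 5 or more cell cycle UMIs 1 of 12 was higher and 2 were lower, with a median of −0.41. Much of it lay in few cells. Ccr7, the receptor that guides dendritic cells to lymph nodes, was seen in 4 control and 5 MC38 members, and 72.1% of the MC38 UMIs were in 1 barcode. Il12b, a subunit of the T cell activating cytokine IL-12, was seen in 1 and 4 members, and 3 of those 4 also had Ccr7. Ccl17, a chemokine for Ccr4 on T cells, was seen in 5 control members (1.94%) and 49 MC38 members (33.3%, 25.8 to 41.6). Its level was 108 and 272 CPM, and 1 control barcode alone held 307 of the 386 control UMIs. In members with 4 or more UMIs of the rule genes the list had 4 higher and 3 lower with a median of 0.03. Markers of mature dendritic cells in the members summed to 41.4 and 115 CPM, with 5 of 6 higher and Fscn1 at 0 by the rule.

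The Fscn1 limit itself removed 8 of 266 control barcodes (3.01%) and 5 of 152 MC38 barcodes (3.29%). These few had Ccr7 at 1308 and 1924 CPM and Il12b at 654 and 143 CPM. Within the mature class the Il12b level was 1132 CPM in the control library and 249 CPM in the MC38 library. Members held 4 of the 784 Il12b UMIs of the kept control barcodes and 27 of the 853 of the MC38 barcodes.

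Cytokines and chemokines held calls both ways, with 8 of 17 higher and 4 lower, against 8.85% and 7.17% of all genes. With each barcode weighted equally 4 were higher and 4 lower, and without members that had 5 or more cell cycle UMIs 1 of 13 was higher and 4 lower. Cxcl9, a chemokine that draws Cxcr3-bearing T cells, was at 257 and 286 CPM (log2 0.16, 0.01 to 0.30), and cDC1 were the class with its highest level in both libraries. It was seen in 17.1% (12.7 to 22.2) and 27.9% (20.8 to 35.9) of members, in 1.24% and 2.38% of B cells, and after thinning in 12% and 12.8%. Of the control members with Cxcl9, 15 of 44 also had Cxcl10, and of the MC38 members 2 of 41. Cxcl16 (78.5 and 195 CPM), Ccl6 (94.7 and 295 CPM), Ccl9 (35.2 and 96.4 CPM) and Il1b (21.2 and 79.0 CPM) were higher in the MC38 library. A single MC38 barcode held 61.6% of the Ccl6 UMIs, 34.3% of the Ccl9 UMIs and 38.4% of the Il1b UMIs, while for Cxcl16 the highest held 5.48%. Il15, which sustains NK and memory CD8 T cells, was lower at 13.4 and 3.57 CPM, as were Ebi3 (31.6 and 17.4 CPM) and Ccl5 (72.4 and 21.4 CPM). Ccl5 was called neither with a mitochondrial limit of 5%. Ccl2 was called higher, but 91.1% of its MC38 UMIs were in 1 barcode.

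Of 21 receptors 3 were called higher and 1 lower, against 8.85% and 7.17% of all genes. Csf2rb, the common chain of the GM-CSF, IL-3 and IL-5 receptors, was at 117 and 248 CPM (2.11-fold, 1.86 to 2.41). Ccr1, a receptor of inflammatory chemokines, was at 4.47 and 21.9 CPM, and was called neither with monocyte-marked members left out (log2 ratio 1.15). Cx3cr1, a receptor of monocytes, was at 31.6 and 8.92 CPM, but in members with both rule genes its log2 ratio was 0.35 and it was called neither. Ccr2, the receptor that brings cells from the blood, was at 595 and 401 CPM (−0.57, −0.68 to −0.45), which is under 1.5-fold. It was called lower with at least 4 UMIs of the rule genes (−0.71) and with both rule genes present (−0.67). Without monocyte-marked members Ccr2 was also called lower (−0.82). The call was neither without members with a cDC2 marker UMI (−0.42) and after thinning (−0.56). Csf2rb, which was seen in 64.3% and 78.2% of members, was the best sampled of the receptors that were higher.

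Among sensors, 2 of 17 were called higher and 3 lower, against 8.85% and 7.17% of all genes. Tlr3 was at 150 and 168 CPM (0.16, −0.03 to 0.36). Tlr12, which pairs with Tlr11 to sense profilin, was lower at 57.0 and 26.3 CPM. Ifih1 (29.6 and 13.8 CPM) and Mb21d1, the DNA sensor cGAS (40.8 and 24.1 CPM), were also lower. Tmem173, the adaptor STING downstream of cGAS, was at 60.6 and 96.4 CPM and Cd14 at 3.91 and 26.8 CPM. At a mitochondrial limit of 5% Tlr12 (0.023 on the log2 scale) and Tmem173 were called neither. Ifih1 and cGAS thus were lower while STING, less firmly, was higher.

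Of the genes of glycolysis and hypoxia 10 of 17 were called higher and none lower, with a median of 0.68, against 8.85% of all genes called higher. At a mitochondrial limit of 5% 3 were higher and 1 lower (median 0.44), and after thinning 4 of 15 were higher (0.39). Pfkp, a form of the committed enzyme of glycolysis, was at 157 and 299 CPM (1.91-fold, 1.70 to 2.14), and cDC1 had the highest level of any class in both libraries. Aldoa was at 164 and 316 CPM, Gapdh at 803 and 1335 CPM and Pkm at 283 and 457 CPM. Hk2 was at 66.0 and 45.1 CPM and Pgk1 at 14.0 and 8.03 CPM, both not called. In members with 4 or more UMIs of the rule genes Pgk1 was called lower (−1.12) and Hk2 neither (−0.49). With each barcode weighted equally Pgk1 (−1.39) and Hk2 (−0.73) were called lower. With monocyte-marked members left out 4 of 17 were higher and 2 lower, with a median of 0.51. The same list was higher in cDC2 (11 of 17, median 0.73), pDC (8 of 17, 0.57), mature dendritic cells (11 of 18, 0.97) and monocytes or macrophages (14 of 18, 0.94). For these other classes the shares of all genes called are not given, so their counts have no background beside them.

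Cell cycle genes had 0 of 20 higher and 3 lower, against 8.85% and 7.17% of all genes, with a median of −0.23. At a mitochondrial limit of 10% 7 were lower (median −0.49) and at 5% 10 were lower (−0.57). Mki67, a nuclear protein of dividing cells, was at 221 and 211 CPM (−0.06, −0.23 to 0.10). Cells with a UMI were 26.7% of control members (21.4 to 32.6) and 26.5% of MC38 members (19.6 to 34.4), and 4.29% and 3.20% of B cells. Top2a was at 230 and 232 CPM. Hmgb2 (552 and 316 CPM), Ube2c (203 and 128 CPM) and Ccnb1 (52.3 and 26.8 CPM) were lower. The G1 cyclins differed in opposite ways. Ccnd1 was at 348 and 152 CPM and Ccnd2 at 78.5 and 288 CPM. After thinning, cells with Mki67 were 16.1% and 13.5%. Members with at least 5 UMIs of the cell cycle list, a count that is higher in deeper cells, were 58.5% (52.3 to 64.6) and 73.5% (65.6 to 80.4).

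Of survival and death genes 4 of 17 were higher and 1 lower, against 8.85% and 7.17% of all genes. Bcl2a1b, an antiapoptotic relative of Bcl2 with near-identical copies, was at 72.4 and 284 CPM (3.92-fold, 3.39 to 4.55), and its copy Bcl2a1d at 107 and 162 CPM. Reads can be split between these copies, so the values of each are uncertain. Bcl2l11, the proapoptotic Bim, was at 18.7 and 49.5 CPM and Bcl2l1 at 5.03 and 13.4 CPM. Bcl2 was lower at 31.9 and 17.4 CPM, on 114 and 39 UMIs. Higher calls thus fell on genes that protect and on 1 that promotes death.

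Lysosomal genes had 4 of 17 higher and 0 lower, against 8.85% and 7.17% of all genes. The cathepsins Ctsl (8.10 and 45.1 CPM), Ctsd (39.1 and 172 CPM), Ctsa (52.3 and 96.8 CPM) and Ctsc (110 and 181 CPM) were the 4. In 1 MC38 barcode lay 49.1% of the Ctsd UMIs. Lipid genes were split, 4 of 15 each way, against 8.85% and 7.17% of all genes. With each barcode weighted equally 1 was higher and 5 were lower. Without members that had 5 or more cell cycle UMIs 0 of 11 were higher and 4 lower. Sqle, an enzyme of cholesterol synthesis, was lower at 36.3 and 14.7 CPM. Fdps, a further enzyme of the cholesterol pathway, was at 140 and 52.7 CPM and also lower. Apoe was at 270 and 759 CPM and Msr1 at 2.24 and 25.4 CPM, and both were called higher. Apoe was seen in 75.5% of MC38 members and 75.3% of MC38 B cells, which should lack it, so its share is at the background of free RNA.

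Markers of most other cell types differed between the libraries in the members. Over all genes 8.85% were called higher and 7.17% lower. Markers of cDC2 summed to 391 CPM in control members and 428 CPM in MC38 members, with 1 of 8 higher and 4 lower. Among them Cd209a was seen in 37 control members (14.3%) and 2 MC38 members (1.36%), and Ccl17 in 5 and 49. Hepatocyte markers summed to 315 CPM in control members and 896 CPM in MC38 members, with 10 of 12 higher, 1 lower and none at 0. Monocyte or macrophage markers summed to 2369 and 2869 CPM, with 8 of 12 higher. Neutrophil markers were at 13.7 and 119 CPM, with 3 of 5 higher, and Ly6g was at 0 in both and Mmp9 in the MC38 members. Kupffer cell markers were at 59.8 and 126 CPM, with 3 of 6 higher and none at 0. Platelet markers were at 6.15 and 51.8 CPM (5 of 5 higher), erythroid markers at 16.2 and 72.3 CPM (4 of 4 higher) and MC38 or epithelial markers at 10.1 and 46.0 CPM (2 of 3 higher). T cell markers were lower, at 41.1 and 14.3 CPM (4 of 6), and endothelial markers were alike, at 75.7 and 74.5 CPM. Markers of pDC (416 and 222 CPM), of NK cells or ILC1 (255 and 127 CPM) and of B cells (234 and 132 CPM) were lower, with Cox6a2, Klk1, Pax5, Ncr1, Klrb1c, Prf1, Eomes and Klra8 at 0 in the MC38 members. The part of these in the differences above was not tested.

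Among the single genes with the clearest differences, Ifitm1, an interferon-induced membrane protein, was at 13.7 and 303 CPM, 22.1-fold higher (16.5 to 30.2). Cells with a UMI were 6.59% and 38.1% of members, against 1.91% and 7.30% of B cells, and its highest level in the MC38 library was in cDC2 at 2733 CPM. Sult1a1, a sulfotransferase, was at 29.3 and 129 CPM, Fkbp5, a glucocorticoid-induced chaperone partner, at 11.5 and 66.9 CPM, Eva1b at 8.10 and 51.8 CPM and the Fc receptor Fcgr3 at 19.8 and 90.6 CPM. Ifitm1 thus went against the type I interferon list, of which it was no member.

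Arg1, Fn1 and Tgm2 also ranked high, with a large share of their UMIs in single barcodes. Arg1, the arginase of hepatocytes and some macrophages, was seen in 27.9% of MC38 members and 27.7% of MC38 B cells, and 45.2% of its UMIs were in 1 barcode. Its share is at the background of free RNA. For Fn1 1 barcode held 31.9% and for Tgm2 51.7% of the MC38 UMIs. Fn1 was seen in 30.6% of MC38 members and 17.9% of the shallower B cells, and its call was kept under all 16 alternatives run for it (log2 ratio 1.98 to 6.41). Tgm2 lost its call under 4 of 16.

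The clearest lower genes beside the interferon list were Hspa1b, an inducible heat shock protein (121 and 27.7 CPM), its neighbour copy Hspa1a (108 and 42.8 CPM), whose reads can be shared, and the interferon-inducible Ifi203 (168 and 59.8 CPM), Mndal (202 and 78.1 CPM) and Samd9l (137 and 48.6 CPM). Cxx1b was at 110 and 40.6 CPM and Cd180, a relative of the Toll-like receptors, at 163 and 66.0 CPM. Snrpf, a core protein of the spliceosome, was at 216 and 79.9 CPM and the scaffold Ahnak at 502 and 223 CPM. Immediate-early genes were split, with 3 of 19 higher and 5 lower, against 8.85% and 7.17% of all genes. Jun (155 and 99.1 CPM), Zfp36 (147 and 87.9 CPM) and Klf4 (122 and 69.2 CPM) were lower, the last with a log2 ratio of −0.12 and no call in members with 4 or more UMIs of the rule genes, while Dusp1 (79.6 and 134 CPM) and Ier3 (7.55 and 45.1 CPM) were higher. In cDC2, 11 of the 12 leading higher genes and 10 of the 12 leading lower genes were called the same way and 0 the opposite way. In pDC these were 9 and 9 of 12. In mature dendritic cells they were 9 and 6, with 1 lower gene called the opposite way. In monocytes or macrophages they were 9 and 8, with 2 higher genes called the opposite way. The shares of all genes called in these 4 classes are not given, so no background stands beside these counts.

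**Figure D5:**
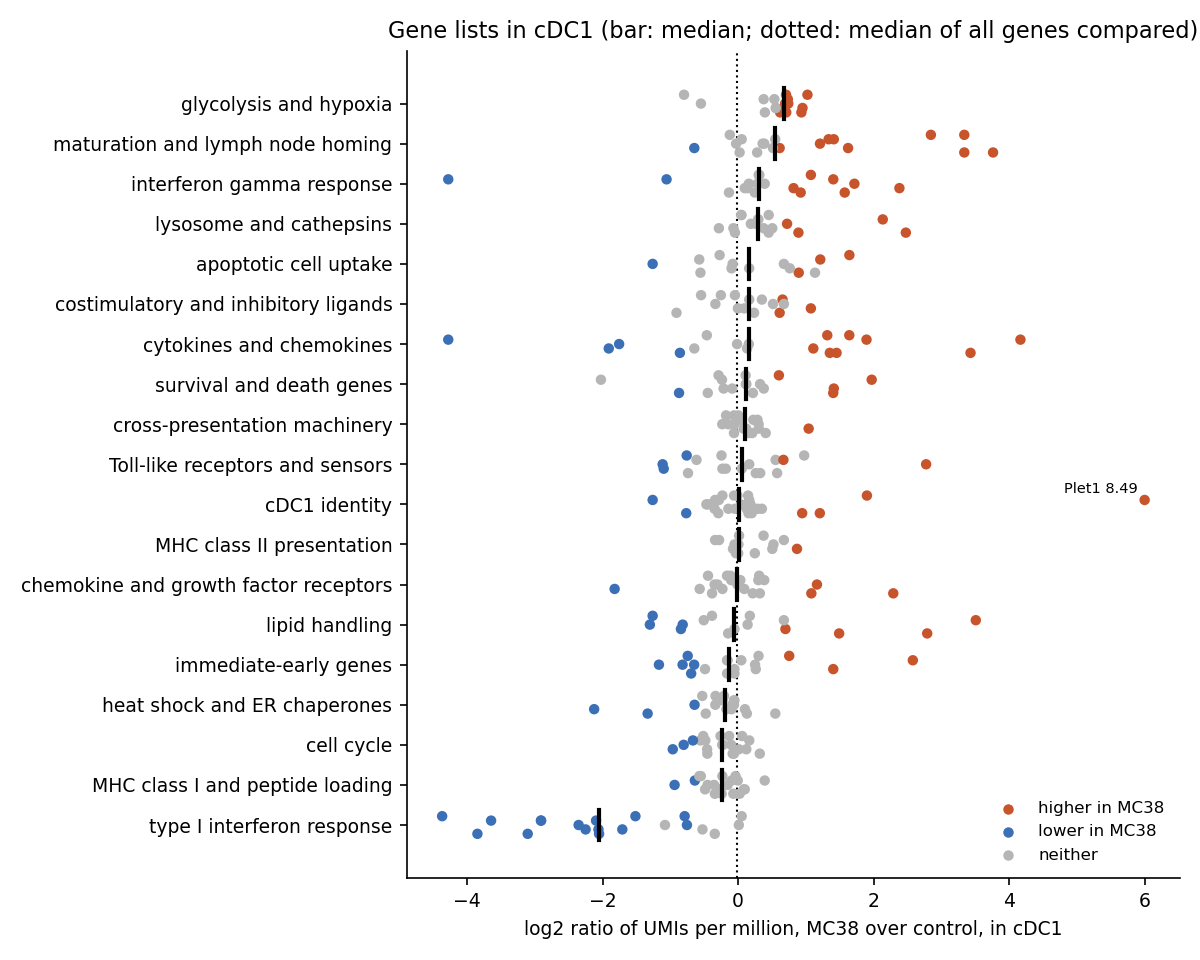
Log2 ratio of CPM, MC38 over control, in cDC1 (x axis) for the genes of 19 lists (rows), 1 point per gene; the bar is the list median, the dotted line the median of all genes compared, and Plet1 (8.49 at its floor) is drawn at the right edge. The type I interferon list has its median at −2.06 and the glycolysis and hypoxia list at 0.68, while the other medians lie between −0.24 and 0.55.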

How the data were processed

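Per the submitters' processing notes, bcl2fastq, Cell Ranger 2.2, STAR, Seurat 2.3.4, R 3.6.0 and the build GRCm38.p6 were used, with roles not given. The matrix headers name software version 3.0.2. The deposited values are raw UMI counts per gene and barcode, per the file headers, and were filtered here as stated.

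Counts were summed over members per library and scaled to a total of 1000000 (CPM). Ratios carry exact conditional 95% intervals and shares exact Clopper-Pearson intervals (scipy 1.17.1, numpy 2.4.6, pandas 2.3.3), which cover counting error only. Genes with under 10 UMIs in both libraries together were left out. A zero was given a floor of 3 counts over the group. The ratio interval was also run on simulated Poisson counts, the model it assumes. That run cannot show how the interval does where UMIs of a gene cluster in few cells. Doublets were scored with scrublet in scanpy 1.11.5 and kept. For shares at equal depth, cells were thinned to 2000 UMIs, leaving out 9 control and 6 MC38 members.

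Named were the 12 leading genes in each direction (at least 50 CPM and 10% of cells where higher, and at least 10% of the highest class), ranked by the interval end nearest 0, 2 to each side per list, and a set of cDC1 genes. Other genes were named after their values were seen. Members, lists and rules were chosen with earlier results of these data known. All named gene identifiers matched the GENCODE M21 annotation. In the lists, 1 gene did not match a symbol. Values of 4 genes are not reported here, though the counts of their lists include them.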

Additional observations from a re-analysis of the deposited data

Results flagged for a closer look

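Ccnb1, the mitotic cyclin B1, differed in opposite directions in the conventional classes. Its log2 ratio, MC38 over control, was −0.96 in cDC1 (52.3 and 26.8 CPM) and 1.58 in cDC2 (8.45 and 25.3 CPM). Both counting intervals excluded no difference, but the difference between the classes was not tested, since each group is 1 library. In cDC1 it was seen in 10.1% of control and 14.3% of MC38 members, which is opposite in direction to its level. The cDC1 call was lost at a mitochondrial limit of 5% (−0.50), with each barcode weighted equally (−0.48) and after thinning (−0.76).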

How the results depend on the processing

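No paired analysis was possible because each group is 1 library, and no replicate could be left out. The log2 ratio of the cDC1 share was −1.91, −2.77 with a mitochondrial limit of 5% and −1.46 with none, and lower under all 10 alternatives run for it. Against 937 genes higher and 759 lower, there were 550 and 844 with the limit of 5%, 829 and 929 with one of 10%, and 1012 and 1114 with each barcode weighted equally. There were 301 and 315 after thinning to 2000 UMIs, 421 and 438 without members that had 5 or more cell cycle UMIs, and 396 and 434 among genes with at least 100 UMIs. Lower calls outnumbered higher ones in all 6 of these, and all but the equal weighting compared fewer genes or cells. In all the other alternatives higher calls outnumbered lower ones. They were 880 and 617 with at least 4 UMIs of the rule genes, 964 and 656 with both rule genes present, and 994 and 692 with no mitochondrial limit. Lists with a median past 1.5-fold numbered 2, and 1 after thinning, 1 without the cell cycle members and 1 without members with more monocyte than cDC1 marker UMIs. Such lists numbered 3 with called doublets removed and 3 with both rule genes present. Leaving out the cell cycle members removed 58.5% of control and 73.5% of MC38 members.

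Signs turned for H2-Q7 (0.19) and Tlr12 (0.023) at the limit of 5%, for Ccr7 (−1.38) with at least 4 UMIs of the rule genes, for Cx3cr1 (0.35) with both rule genes present, and for Cd274 (−0.12) with each barcode weighted equally. Without the cell cycle members they turned for Tgm2 (−0.37), Cd83 (−0.33), Cd274 (−0.041), Gbp2 (−0.38) and Apoe (−0.48). The cause was not tested. Alternatives based on monocyte or cDC2 markers and on shared barcodes were chosen after seeing the data.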
